A study of Mus musculus with 6 samples.

Results

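The genes described here are 10 steroidogenic genes, chosen by name for their function and with earlier results of these data known. They are the cholesterol carrier gene *Star*, the enzyme genes *Cyp11a1*, *Hsd3b1*, *Cyp17a1*, *Cyp19a1* and *Hsd17b1*, and the electron carrier gene *Fdx1*. The others are the nuclear receptor genes *Nr5a1*, *Nr0b1* and *Nr0b2*. All 10 were among the 28262 genes listed in the table of counts. They were measured by RNA-seq of isolated mouse Sertoli cells, the somatic nurse cells of the seminiferous tubule, to learn which genes depend on PA1, a cofactor of the MLL3/4 histone methyltransferase complex. The cells came from C57BL/6 mice 20 days old. Before total RNA was taken they were kept in culture at 34 °C, otherwise untreated, in medium with insulin, epidermal growth factor and transferrin. In Pa1F/F cells, the control, both *Pa1* alleles were floxed. In Amh-pa1-/- cells the same floxed alleles were cut by a Cre driven by the *Amh* promoter, which is active in Sertoli cells. Each genotype had 3 libraries, and the labels do not say whether they came from separate animals or cultures, so p-values measure the spread between these libraries, which may be technical. *Pa1* itself was not analysed here, and thus no check of the genotype by its own reads was made.

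Steroid synthesis starts when STAR moves cholesterol to the inner mitochondrial membrane. There CYP11A1 cuts off the side chain to give pregnenolone, with electrons passed from ferredoxin reductase (FDXR) to ferredoxin (FDX1) to the enzyme. HSD3B enzymes then make progesterone, CYP17A1 opens the way to androgens, 17β-hydroxysteroid dehydrogenases interconvert weak and strong androgens and estrogens, and aromatase, CYP19A1, makes estrogens. NR5A1 (SF-1) is the nuclear receptor that activates most of these genes, while NR0B1 (DAX-1) and NR0B2 (SHP) lack a usual DNA-binding domain and repress NR5A1 and related receptors. In the postnatal testis the Leydig cells of the interstitium are the main steroid makers. Sertoli cells express *Nr5a1* and *Nr0b1*, and aromatase has been described in immature Sertoli cells.

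Total counts were 14051353 to 16231443 in Pa1F/F and 13203757 to 15247587 in Amh-pa1-/- libraries, so that 3 counts, the limit that a count of 0 allows, stood at 0.185 to 0.227 CPM (counts scaled to the library total). This limit covers counting error only. Replicates were not equally far apart: the chi-square of the counts per degree of freedom was 2.22 between Pa1F/F replicates 1 and 3 and 1.66 between Amh-pa1-/- replicates 1 and 2, and 18.3 to 29.8 in the other 4 pairs, so Pa1F/F replicate 2 and Amh-pa1-/- replicate 3 stood apart from their groups. Of the Sertoli cell markers, *Sox9*, *Wt1*, *Dhh* and *Clu* were present in every library, while *Rhox5*, *Tsx* and *Trf* were too low to be tested. Of 14 tested Sertoli markers, 3 fell by edgeR (*Defb19*, *Inhbb* and *Shbg*) and 2 by DESeq2. By the adjusted p alone 6 were lower and 0 higher (1 higher at an unadjusted p under 0.05), and the median log2 fold change of the 14 was -0.40, with *Sox9*, *Wt1* and *Dhh* at -0.12, 0.13 and -0.004. The whole list summed to 243840 to 249580 normalized counts in Pa1F/F and 148590 to 190650.0 in Amh-pa1-/- libraries, and *Clu* (log2 fold change -0.69, not called) held 78.4% of the control sum. Without *Clu* it was 50329 to 55474 against 42699 to 44325. In bulk samples, fewer cells of a type and less RNA per cell cannot be told apart.

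Most of the steroidogenic genes that were expressed were lower in Amh-pa1-/- cells. Differential expression was called where edgeR's quasi-likelihood test gave an adjusted p under 0.05 over all 14919 tested genes and the change was 2-fold or more. The genes for cholesterol entry and side-chain cleavage, *Star*, *Cyp11a1* and *Fdx1*, fell, as did *Hsd3b1* and the receptor genes *Nr0b1* and *Nr0b2*. *Nr5a1* was lower by less than 2-fold, *Hsd17b1* did not pass the test, and *Cyp17a1* and *Cyp19a1* were too low to be tested. Thus 6 of 8 tested genes fell and 0 rose by edgeR, as by DESeq2 and limma-voom, with 0 higher at an unadjusted p under 0.05, where 6.56% of all tested genes fell and 5.44% rose. The groups did not overlap, with every Amh-pa1-/- library the lower, for 7 of the 8, as they did for 26.1% of all tested genes, and for 52.4% counting both directions. By the adjusted p alone 7 of the 8 were lower and none higher, where 17.1% of all tested genes were lower and 18.2% higher. The median of the 8 log2 fold changes was -1.32, against 0.002 over the whole table. Since the genes were chosen with earlier results known, these comparisons with all tested genes are a description. With the close replicate pairs summed to 1 library each, a comparison of 2 against 2, the calls of *Star* (adjusted p = 0.0635), *Hsd3b1* (0.0791), *Fdx1* (0.0781) and *Nr0b2* (0.213) were lost by edgeR and those of *Cyp11a1* and *Nr0b1* were kept.

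**Figure D1:**
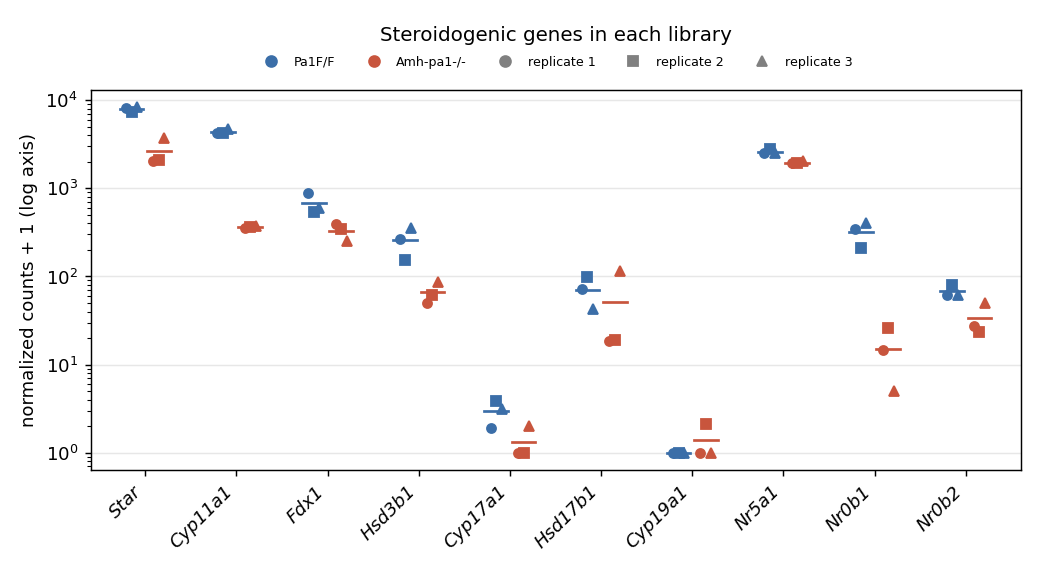
Normalized counts plus 1 of the 10 genes (log axis) in each of the 6 libraries, Pa1F/F in blue and Amh-pa1-/- in red, with a symbol for each replicate number and a bar for the group mean. *Cyp11a1* and *Nr0b1* show the widest gaps between the groups, *Hsd17b1* is low in Amh-pa1-/- replicates 1 and 2 and high in replicate 3, and *Cyp17a1* and *Cyp19a1* lie at the bottom of the axis in every library.

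*Star* (chr8:25806555-25815982, plus strand, GRCm38) encodes the carrier whose supply of cholesterol limits acute steroid synthesis. It was counted at 8098, 7298 and 8336 normalized counts in Pa1F/F replicates 1, 2 and 3, and at 2019.6, 2101 and 3762 in Amh-pa1-/- replicates 1, 2 and 3. The control libraries lay close together, Amh-pa1-/- replicate 3 was the highest of its group, and the groups did not overlap. *Star* fell 3.01-fold, with a log2 fold change of -1.59 ± 0.24 (SE, n = 3 libraries per genotype) and an adjusted p of 0.00337 by edgeR. Without Amh-pa1-/- replicate 3 the log2 fold change was -1.94.

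*Cyp11a1* (chr9:58006411-58027023, plus strand) encodes the side-chain cleavage enzyme, the first and committed step from cholesterol to any steroid. Its normalized counts were 4249.8, 4212 and 4696 in the Pa1F/F libraries and 352, 364 and 377 in the Amh-pa1-/- libraries. Both groups were tight, including the replicates that stood apart in the transcriptome as a whole, and the lowest control library held over 10 times the highest Amh-pa1-/- library. The fall was 12.04-fold, with a log2 fold change of -3.59 ± 0.07 (SE) and an adjusted p of 5.15e-06, and the log2 fold change stayed between -3.62 and -3.54 over 14 alternative settings. A lincRNA gene, *Gm17322*, overlaps *Cyp11a1* on the same strand over 1041 bases, with 34 to 65 counts in Pa1F/F and 15 to 22 in Amh-pa1-/- libraries.

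*Fdx1* (chr9:51943306-51963556, minus strand) encodes ferredoxin, which hands electrons to CYP11A1. It stood at 892, 538 and 596 normalized counts in Pa1F/F and at 388, 341 and 250.5 in Amh-pa1-/- libraries. The groups did not overlap, although Pa1F/F replicate 1 was well above the other control libraries. *Fdx1* fell 2.07-fold, with a log2 fold change of -1.05 ± 0.24 (SE) and an adjusted p of 0.0144. This lies near the fold threshold, and the log2 fold change was -0.79 without Pa1F/F replicate 1 and -0.89 without Amh-pa1-/- replicate 3, both short of a call. *Fdxr*, whose product passes electrons to ferredoxin, fell as well, from 1557, 2231 and 1455 normalized counts in Pa1F/F to 414, 511 and 820 in Amh-pa1-/- libraries (log2 fold change -1.59 ± 0.28, adjusted p = 0.00578). Both carriers of the mitochondrial chain were thus lower together with the enzyme they serve. *Por*, which serves the microsomal enzymes CYP17A1 and CYP19A1, had a log2 fold change of -0.43 (adjusted p = 0.0156), and *Cyb5a*, a helper of CYP17A1, one of 0.12 (adjusted p = 0.570).

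*Hsd3b1* (chr3:98852194-98859794, minus strand) encodes the 3β-hydroxysteroid dehydrogenase that turns pregnenolone into progesterone. Its normalized counts were 268, 154 and 358 in Pa1F/F and 48.8, 60.8 and 86.2 in Amh-pa1-/- libraries. Control libraries varied about 2-fold, with replicate 2 the lowest, and still none of them reached down to an Amh-pa1-/- library. The fall was 3.98-fold (log2 fold change -1.99 ± 0.35, adjusted p = 0.00583). *Hsd3b1* belongs to a family of near-identical copies, so its counts are uncertain where reads could be shared with them. *Hsd3b6*, the copy of adult Leydig cells, had 0 to 4 counts in every library.

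Of the genes for androgen and estrogen synthesis, *Cyp17a1* (chr19:46667165-46672974, minus strand) had 1, 3 and 2 counts in Pa1F/F and 0, 0 and 1 in Amh-pa1-/- libraries. *Cyp19a1* (chr9:54165937-54268110, minus strand) had 1 count in Amh-pa1-/- replicate 2 and 0 in the other 5 libraries. Both lay at or under 3 counts in every library, so no fold is given, and a difference between the genotypes was not detectable at this depth.

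*Hsd17b1* (chr11:101078411-101080527, plus strand) encodes a 17β-hydroxysteroid dehydrogenase. It was counted at 70.7, 96.8 and 42.0 normalized counts in Pa1F/F and at 17.6, 18.0 and 114 in Amh-pa1-/- libraries. Amh-pa1-/- replicates 1 and 2 lay below every control library and replicate 3 above every one, so the groups overlapped. The log2 fold change was -0.48 ± 0.74 (SE), with an adjusted p of 0.650 by edgeR and p = 0.6 by an exact two-sided permutation test. Without Amh-pa1-/- replicate 3 it was -1.97, and the gene was then called (adjusted p = 0.00741). *Hsd17b3*, which makes testosterone from androstenedione, had the same order of libraries, with 401, 647 and 317 normalized counts in Pa1F/F and 184, 202 and 667 in Amh-pa1-/-. Its log2 fold change was -0.37 (adjusted p = 0.622), and without Amh-pa1-/- replicate 3 it was -1.23 (adjusted p = 0.0139). In the same library the contractile genes *Myh11* (1605 against 164 and 216 normalized counts in the other Amh-pa1-/- libraries), *Des* (485 against 43.9 and 46.2) and *Cnn1* (421 against 24.8 and 34.2) were high, as was the Sertoli cell gene *Amh* (365 against 43.9 and 48.4). The part of these differences between libraries in the values of *Hsd17b1*, *Hsd17b3* and *Star* was not tested.

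**Figure D2:**
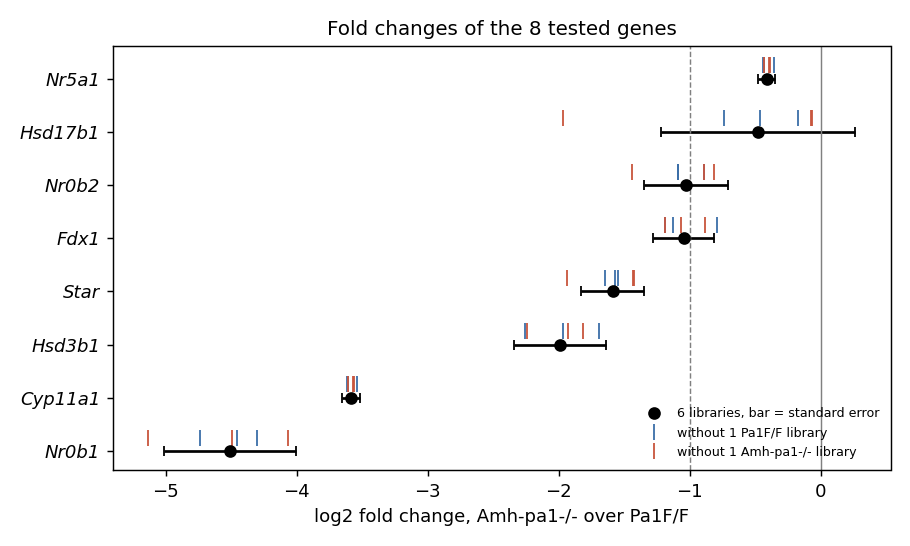
Log2 fold change (horizontal axis, Amh-pa1-/- over Pa1F/F) of the 8 tested genes, with bars for the standard error of the fit to 6 libraries and small ticks for the fits without 1 Pa1F/F library (blue) or 1 Amh-pa1-/- library (red). The ticks of *Cyp11a1* and *Nr5a1* lie close to the point, while the tick of *Hsd17b1* without Amh-pa1-/- replicate 3 lies at -1.97, far below its other ticks. The dashed line marks a log2 fold change of -1.

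Among the receptor genes, *Nr5a1* (chr2:38692656-38714542, minus strand), the activator, was the least altered. Its normalized counts were 2506, 2822 and 2504 in Pa1F/F and 1916, 1935 and 2032 in Amh-pa1-/- libraries. The groups did not overlap and each was tight. The level was 1.33-fold lower, with a log2 fold change of -0.41 ± 0.06 (SE) and an adjusted p of 0.00374, which passes the test alone but not the fold threshold. An antisense gene, *Nr5a1os*, overlaps it over 1867 bases with 0 to 8 counts in each library. Whether the counting used the strand is not stated in the sources used here. *Nr5a2*, the paralog of *Nr5a1* best known from the ovary and liver, was too low to be tested, with 14.5, 21.3 and 9.44 normalized counts in Pa1F/F and 1.95, 9.01 and 2.004 in Amh-pa1-/- libraries.

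*Nr0b1* (chrX:86191764-86195947, plus strand), the repressor of NR5A1, fell the most of the 8 genes. It stood at 341, 212 and 406 normalized counts in Pa1F/F and at 13.7, 24.8 and 4.01 in Amh-pa1-/- libraries. Control libraries varied about 2-fold and Amh-pa1-/- libraries about 6-fold, from 4 to 22 raw counts, with a wide gap between the groups. The fall was 22.6-fold, with a log2 fold change of -4.51 ± 0.50 (SE) and an adjusted p of 0.00107. Without Amh-pa1-/- replicate 2, the highest of its group, the log2 fold change was -5.13, and it was -4.06 without replicate 3, the lowest.

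*Nr0b2* (chr4:133553376-133556536, plus strand), the other repressor, was expressed at a low level. Its normalized counts were 60.7, 79.4 and 60.8 in Pa1F/F and 26.4, 22.5 and 49.1 in Amh-pa1-/- libraries. The groups did not overlap, but Amh-pa1-/- replicate 3 came near the control libraries. *Nr0b2* fell 2.05-fold (log2 fold change -1.03 ± 0.32, adjusted p = 0.0445), at the edge of both thresholds. The call was lost without Pa1F/F replicate 1, 2 or 3 (adjusted p = 0.0927, 0.120 and 0.0919) and without Amh-pa1-/- replicate 1 or 2 (0.132 and 0.124), and was kept without Amh-pa1-/- replicate 3 (0.00289).

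For the 7 genes whose groups did not overlap, the exact two-sided permutation test of each gene gave p = 0.1, the smallest that 3 against 3 libraries allow.

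Promoter sequence was at hand for 6 of the 10 genes, in the RefSeq table of GRCm38.p6 with 250 bases before and 50 after each start site, and not for *Star*, *Cyp17a1*, *Hsd17b1* and *Nr5a1*. The 5 that fell and have a promoter are shown, 5′ to 3′ on the strand of the gene, since these genes were lower together. Capitals mark TCAAGG or its reverse complement, the front of the extended half-site that NR5A1 is known to bind, and AGGTCA or its reverse complement, the plain nuclear receptor half-site. These and the other motifs searched were chosen after the sequences and the values were seen.
*Cyp11a1* (chr9:58014702-58015001, plus strand, inside the interval listed for the gene): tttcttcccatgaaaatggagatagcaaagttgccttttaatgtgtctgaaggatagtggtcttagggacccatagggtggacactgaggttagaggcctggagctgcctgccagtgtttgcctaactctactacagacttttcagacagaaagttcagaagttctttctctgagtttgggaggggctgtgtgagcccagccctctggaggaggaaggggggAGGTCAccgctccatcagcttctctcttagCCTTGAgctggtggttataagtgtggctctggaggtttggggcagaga
*Nr0b1* (chrX:86191525-86191824, plus strand): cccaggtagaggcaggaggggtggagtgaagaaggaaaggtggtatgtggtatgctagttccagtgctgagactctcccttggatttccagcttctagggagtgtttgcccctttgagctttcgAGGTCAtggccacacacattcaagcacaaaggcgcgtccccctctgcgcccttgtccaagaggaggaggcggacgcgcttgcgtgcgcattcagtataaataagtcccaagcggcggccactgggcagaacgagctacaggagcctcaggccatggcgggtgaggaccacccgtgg
*Hsd3b1* (chr3:98859745-98860044, minus strand): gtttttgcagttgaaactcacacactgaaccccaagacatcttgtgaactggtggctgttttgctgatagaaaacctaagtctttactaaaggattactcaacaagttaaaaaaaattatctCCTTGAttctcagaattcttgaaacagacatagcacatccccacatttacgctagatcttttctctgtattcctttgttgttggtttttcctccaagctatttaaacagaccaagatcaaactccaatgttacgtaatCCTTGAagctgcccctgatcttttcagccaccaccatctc
*Fdx1* (chr9:51963553-51963852, minus strand): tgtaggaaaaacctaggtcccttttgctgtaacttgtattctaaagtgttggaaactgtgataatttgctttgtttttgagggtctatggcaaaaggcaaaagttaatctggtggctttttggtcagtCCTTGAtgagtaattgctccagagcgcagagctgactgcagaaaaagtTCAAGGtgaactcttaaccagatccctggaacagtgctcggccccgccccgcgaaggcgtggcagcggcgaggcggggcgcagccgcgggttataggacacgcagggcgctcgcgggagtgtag
*Nr0b2* (chr4:133553126-133553425, plus strand): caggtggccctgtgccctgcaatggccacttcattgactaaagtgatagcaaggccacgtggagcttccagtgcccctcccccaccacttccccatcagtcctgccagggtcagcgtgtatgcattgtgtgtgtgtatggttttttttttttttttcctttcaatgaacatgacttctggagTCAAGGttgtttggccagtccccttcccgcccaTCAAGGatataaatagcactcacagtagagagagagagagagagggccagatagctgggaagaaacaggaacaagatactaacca

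Searched on both strands, TCAAGG was found in 4 of these 5 genes, or 4 of their 6 promoters. Over all of RefSeq it was in a promoter of 16.4% of 27025 genes, or in 14.4% of 32851 promoters of the same length. In *Nr0b2* it begins 68 and 35 bases before the start site and in *Fdx1* 122 and 74 bases before it. In *Hsd3b1* it begins 128 bases before and 10 bases after the start, and in *Cyp11a1* 2 bases after. AGGTCA was found in *Cyp11a1*, 28 bases before the start, in *Nr0b1*, 126 bases before, and in an upstream promoter of *Cyp19a1*, and in a promoter of 18.1% of all genes (16.3% of promoters). The joined form CAAGGTCA, which overlaps both motifs, was found in 0 of the 6 genes (1.76% of all genes, 1.56% of promoters), and so was TGANTCA, the AP-1 site with any central base (8.97% and 7.81%). TATAA was found in 5 of the 6 genes and 6 of their 9 promoters (28% and 24.9%). Another *Cyp11a1* promoter, farther upstream, held none of the 5 motifs. Such matches describe letters in a window and are not evidence of binding.

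Scaled to transcript length, the levels of the genes differed in order between the genotypes. The lengths, of the canonical transcript of each gene, came from another annotation than the counts. The order of the genes also rests on these lengths, whose error the SD does not cover. In CPM per kilobase of transcript, *Cyp11a1* and *Star* were level in Pa1F/F cells, at 135 ± 8.28 and 133 ± 9.11 (SD, n = 3). *Nr5a1* followed at 41.9 ± 2.94 and *Fdx1* at 39.1 ± 10.97, which did not differ beyond their spread, then *Nr0b1* at 11.8 ± 3.65. *Nr0b2* (3.99 ± 0.641), *Hsd3b1* (3.24 ± 1.27) and *Hsd17b1* (1.997 ± 0.785) were low, with neighbours within their spread, and *Cyp17a1* (0.0665) and *Cyp19a1* (0) were lowest. In Amh-pa1-/- cells *Star* (44.1 ± 16.5) and *Nr5a1* (31.5 ± 0.996) were the highest, within their spread, with *Fdx1* (18.9 ± 4.06) and *Cyp11a1* (11.2 ± 0.375) below them, then *Nr0b2* at 1.95 ± 0.856, *Hsd17b1* at 1.43 ± 1.59, *Hsd3b1* at 0.814 ± 0.238 and *Nr0b1* at 0.523 ± 0.384, these 4 within their spread of a neighbour.

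Ratios of these levels within a library carry no scaling between libraries. *Cyp11a1* over *Star* was 0.964, 1.06 and 1.03 in Pa1F/F and 0.320, 0.318 and 0.184 in Amh-pa1-/- libraries. *Cyp11a1* over *Nr5a1* was 3.26, 2.86 and 3.60 in Pa1F/F and 0.353, 0.361 and 0.356 in Amh-pa1-/- libraries. *Star* over *Nr5a1* was 3.38, 2.70 and 3.48 against 1.102, 1.135 and 1.936. Each ratio was lower in all 3 Amh-pa1-/- libraries than in any control (p = 0.1 each, exact two-sided permutation test, the smallest possible), so *Cyp11a1* was lowered more than *Star*, and both more than *Nr5a1*, in these libraries.

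**Figure D3:**
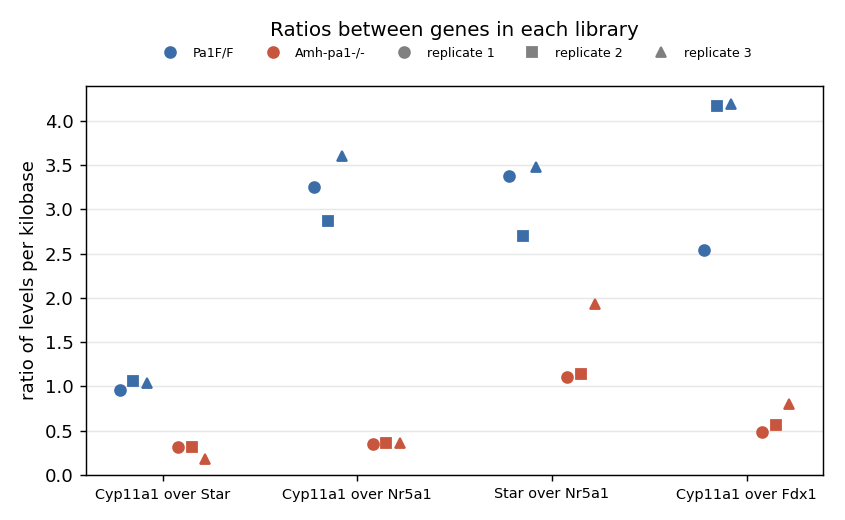
Ratio of the levels per kilobase of transcript (vertical axis, from 0) for 4 pairs of genes in each library, Pa1F/F in blue and Amh-pa1-/- in red with a symbol for each replicate number. All 4 ratios are lower in the Amh-pa1-/- libraries, and *Cyp11a1* over *Nr5a1* is nearly the same in the 3 of them.

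The 5 surrounding lists, written with earlier results of these data known, held 111 tested genes of 129 listed. Of these 15 fell and 4 rose (17.1% called, against 12% of all tested genes), with a median log2 fold change of -0.12.

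Other steroid-metabolising enzymes and electron carriers gave 5 lower and 1 higher of 24 tested genes, with a median log2 fold change of -0.08. Lower were *Hsd11b1*, the glucocorticoid-activating reductase (log2 fold change -3.68), *Cyp11b1*, the adrenal 11β-hydroxylase (-3.40), *Akr1c18*, which inactivates progesterone (-3.14), the 5α-reductase gene *Srd5a2* (-2.90) and *Fdxr*. *Cyp11b1*, which like CYP11A1 takes electrons from ferredoxin, had 107, 65.8 and 91.2 normalized counts in Pa1F/F and 12.7, 10.1 and 2.004 in Amh-pa1-/- libraries. *Hsd11b1* had 1 to 9 raw counts in Amh-pa1-/- libraries, and its log2 fold change was -5.00 without Amh-pa1-/- replicate 3. *Akr1c18* had 211, 234 and 155 against 28.3, 23.7 and 16.0. The groups of these 3 genes did not overlap. *Akr1c14*, a 3α-hydroxysteroid dehydrogenase, rose from 36.2, 76.5 and 47.2 to 171, 205 and 187 normalized counts (1.81). With the close replicate pairs summed, *Akr1c18* kept its call and the other 5 lost theirs, at adjusted p = 0.0642 for *Hsd11b1*, 0.0523 for *Cyp11b1*, 0.05001 for *Srd5a2*, 0.0660 for *Fdxr* and 0.0516 for *Akr1c14*.

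Of the genes for cholesterol uptake, release and delivery, 0 of 21 tested passed both thresholds by edgeR, DESeq2 or limma-voom. By edgeR 3 were lower and 4 higher at the adjusted p alone, and 4 lower and 7 higher at an unadjusted p under 0.05, with a median log2 fold change of -0.01. The cholesterol exporter gene *Abca1* had a log2 fold change of -0.87 (adjusted p = 0.000177), and is named for its values and not by a rule. The log2 fold change of *Star*, -1.59, was below that of each of these 21 genes.

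Among transcriptional regulators of steroidogenic genes, 5 of 33 tested fell and 0 rose by edgeR, with a median log2 fold change of -0.27. DESeq2 gave 6 lower and 0 higher and limma-voom 5 lower and 0 higher, and at an unadjusted p under 0.05 edgeR gave 11 lower and 6 higher. Among the lower ones were *Cebpa* (-1.95) and *Cebpb* (-1.45), basic leucine zipper factors, *Sox8*, a relative of *Sox9* in Sertoli cells (-1.85), and the orphan receptor gene *Nr4a3* (-1.26). With the close pairs summed, *Cebpb* kept its call, and *Cebpa* (adjusted p = 0.0660), *Sox8* (0.0573) and *Nr4a3* (0.103) lost theirs. *Gata4*, a partner of NR5A1 on many steroidogenic promoters, had a log2 fold change of -0.88 (adjusted p = 0.000325), short of the fold threshold, and is named after its values were seen.

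Of the gonadotropin receptors and the cAMP-protein kinase A route, 5 of 29 tested genes fell and 3 rose (median -0.01). Adenylyl cyclase genes went both ways, with *Adcy9* (-1.36) and *Adcy7* (-1.04) lower and *Adcy1* (1.64) and *Adcy5* (1.61) higher. So did the phosphodiesterase genes, which encode the enzymes that break down cAMP, with *Pde3b* (-1.29) and *Pde7b* (-1.27) lower and *Pde4b* (2.02) higher, and the kinase regulatory subunit gene *Prkar2b* was lower (-1.16). The call of *Pde7b*, with 4 to 18 raw counts per library, was lost with DESeq2 (adjusted p = 0.130), without Pa1F/F replicate 1 (0.108) or 3 (0.0937) and without Amh-pa1-/- replicate 2 (0.0920) or 3 (0.0683), among 8 of 13 settings. That of *Adcy7* lost the fold threshold without Pa1F/F replicate 3 (-0.98) and without Amh-pa1-/- replicate 1 (-0.99) or 2 (-0.998). With the close pairs summed, *Adcy1*, *Adcy9* and *Prkar2b* kept their calls, *Adcy7* fell short of the fold threshold (-0.95), and *Adcy5* (adjusted p = 0.0535), *Pde4b* (0.0773), *Pde3b* (0.0635) and *Pde7b* (0.145) lost theirs. Among receptors for steroid hormones, 0 of 4 tested genes passed both thresholds by edgeR, DESeq2 or limma-voom, with 1 lower and 1 higher at an unadjusted p under 0.05 by edgeR. *Esr1*, the estrogen receptor α gene, passed the adjusted p alone (0.00713), with 77.9, 73.6 and 87.1 normalized counts in Pa1F/F and 36.1, 36.0 and 47.1 in Amh-pa1-/- libraries.

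**Figure D4:**
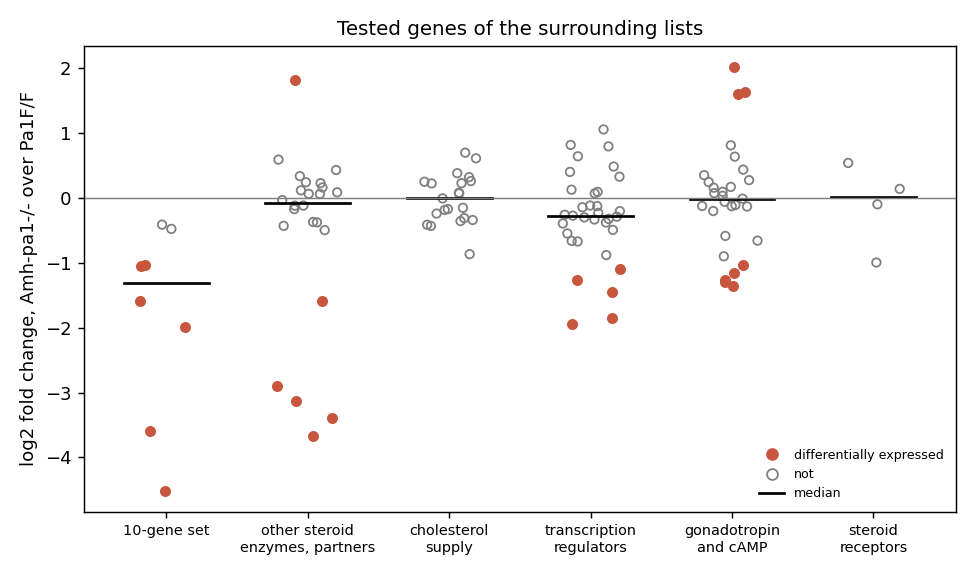
Log2 fold change (vertical axis, Amh-pa1-/- over Pa1F/F) of every tested gene of the 10-gene set and of the 5 surrounding lists, with differentially expressed genes filled in red, other genes open and the list median as a black bar. The median of the 10-gene set lies at -1.32, and the medians of the other 5 lists lie between -0.27 and 0.02.

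Since Leydig cells express *Star*, *Cyp11a1*, *Hsd3b1* and *Cyp17a1* strongly, their other markers were read in the same libraries. *Insl3*, a hormone gene and one of the most abundant Leydig cell transcripts, had 1.81, 0.968 and 0 normalized counts in Pa1F/F libraries and 0 in each Amh-pa1-/- library. *Lhcgr*, the receptor for luteinizing hormone, had 13.6, 9.68 and 6.29 against 1.95, 2.25 and 3.01, and was too low to be tested. *Insl3*, *Hsd3b6* and *Cyp17a1* were at or near 0 in the control libraries. Other markers of the list were well expressed there, with *Hsd17b3* at 317 to 647 and *Thbs2* at 565 to 785 normalized counts, and at 184 to 667 and 208 to 947 in Amh-pa1-/- libraries. Of 9 Leydig cell markers 8 were listed, 4 were tested and 1, *Prlr*, fell. Their summed level was 1615 to 4572 normalized counts in Pa1F/F and 1477 to 2394 in Amh-pa1-/- libraries. The highest value came from *Vcam1*, at 3094 in Pa1F/F replicate 2 and 573 and 618 in the other control libraries. The log2 ratio of the mean sums was -0.55, and 0.11 without that library. Without *Vcam1* the sums were 1042, 1478 and 1097 in Pa1F/F and 412, 448 and 1639 in Amh-pa1-/- libraries, low in Amh-pa1-/- replicates 1 and 2 and highest in replicate 3. The part of Leydig cells in the values of the steroidogenic genes was not tested.

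**Figure D5:**
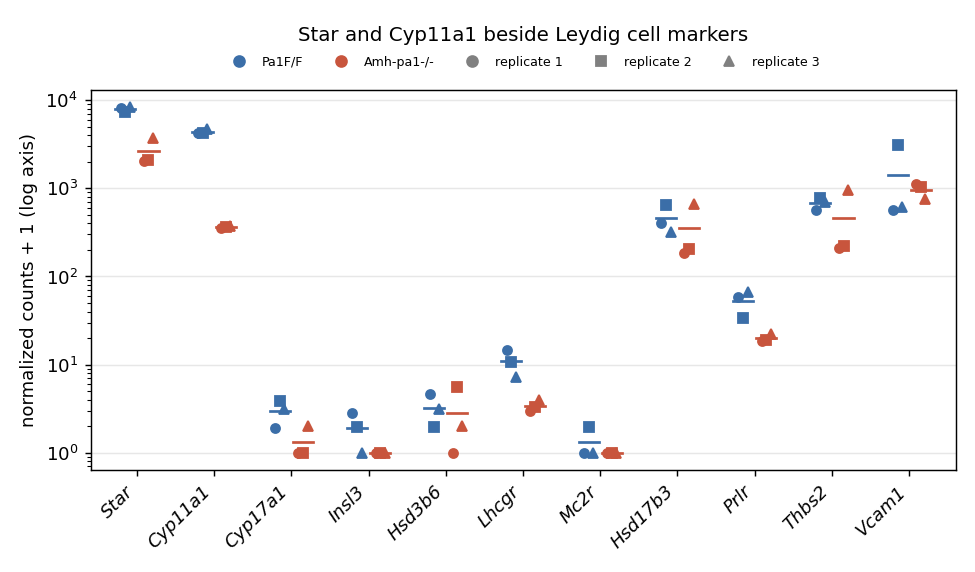
Normalized counts plus 1 (log axis) of *Star*, *Cyp11a1* and *Cyp17a1* and of 8 Leydig cell markers in each library, Pa1F/F in blue and Amh-pa1-/- in red, with a symbol for each replicate number and a bar for the group mean. *Star* and *Cyp11a1* lie above every marker in the Pa1F/F libraries, and *Cyp17a1*, *Insl3*, *Hsd3b6* and *Mc2r* lie at the bottom of the axis in both genotypes.

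Markers of other cells also moved with the genotype, and their part in the values of the steroidogenic genes was not tested. Of 5 markers of adrenal-type steroidogenic cells, *Cyp11b1* and *Mrap* fell, with *Cyp21a1*, *Cyp11b2* and *Mc2r* at 3 counts or fewer in every library, and the sum was 330 to 404 normalized counts in Pa1F/F and 88.2 to 106 in Amh-pa1-/- libraries. Of 9 tested macrophage markers 7 fell, among them *Adgre1* and *Csf1r* (sums 1891 to 2072 against 1128 to 1387). *Mrc1* (log2 fold change 0.17, not called) held 86.3% of the Amh-pa1-/- sum, and without it the sums were 901 to 1086 against 161 to 196. Of 8 tested interstitial markers *Pdgfra* fell (31008 to 37197 against 18641 to 34633), and of 5 tested peritubular myoid markers *Acta2* rose (3264 to 4164 against 12179 to 18639). *Acta2* held 91% of the Amh-pa1-/- sum. The other myoid markers summed to 727 to 1033 in Pa1F/F libraries, and to 367 and 293 in Amh-pa1-/- replicates 1 and 2 but 3255 in replicate 3. Endothelial markers gave 1 lower and 1 higher of 4 tested (1716 to 1806 against 944 to 1491), but *Cdh5* held 90.7% of the control sum and without it the groups overlapped (124 to 207 against 126 to 524). Granulosa cell markers gave 1 lower, *Inha*, and 1 higher, *Wnt4*, of 5 (10435 to 11412 against 6930.5 to 11522), and germ cell markers gave 1 lower of 3 by edgeR, *Ddx4* at 2 to 24 raw counts, and 0 by DESeq2. The germ cell list summed to 88.8 to 117 against 120.1 to 148, with *Tex14* higher by the adjusted p alone (log2 fold change 0.75, adjusted p = 0.0483).

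The genes whose pattern over the 6 libraries was most like that of a member were sought among the 11718 tested genes averaging 50 normalized counts or more. Since the 6 libraries share the split by genotype, such correlations of log2 CPM values are a description. Closest to *Star* were *Sox8* (Pearson's r = 0.999), *Plxna4* (0.999) and *Usp28* (0.998), which like *Star* were highest among Amh-pa1-/- libraries in replicate 3. *Cyp11a1* was followed most closely by *Rgl1* (0.9995), *Plxnc1* (0.9994) and *Hif1a* (0.9992), all flat within each genotype. For *Nr0b1* they were *Met* (0.999), *Nedd4* (0.9985) and *Ncoa3* (0.998), and for *Nr5a1* they were *Mgst1* (0.998), *Myo1d* (0.998) and *Bmp1* (0.9975). *Hsd3b1* was followed by *Col27a1*, *Dpf1* and *Tspan12*, *Fdx1* by *Rprd2*, *March8* and *Cdpf1*, and *Hsd17b1* by *Chac2*, *Proser3* and *Spata21*, with r between 0.993 and 0.996. The companions of *Hsd17b1* shared its high value in Amh-pa1-/- replicate 3.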

How the data were processed

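RNA-seq was made from 3 Pa1F/F and 3 Amh-pa1-/- libraries of mouse Sertoli cells, grouped by the genotype and number in their labels. Per the submitters' processing notes and the methods of the study, reads were aligned to GRCm38 with HISAT2 2.1.0 and counted per gene with HTSeq 0.6.0. The authors deposited these counts without normalization. The table also holds the authors' own comparison, which was not used: a mean signal per gene over all libraries, a ratio and its log2 value, and a p-value with its adjusted form, all made by the authors.

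From the counts, genes were filtered with edgeR's filterByExpr (settings of 10 counts, scaled to library size, in enough libraries and 15 counts in total, both required), scaled by TMM (factors 0.990 to 1.03) and fitted for the quasi-likelihood test in R 4.3.3 with edgeR 4.0.16, with Benjamini-Hochberg adjustment over 14919 genes. A call needed an adjusted p under 0.05 and a log2 fold change of 1 or more in either direction. Normalized counts are counts scaled to the mean library by TMM. Levels per kilobase used the length of the canonical transcript in GENCODE vM39. Tables and permutation tests were made with Python 3.11.15 and scipy 1.17.1. On simulated counts with a log2 fold change of 2, 99.5% of 191 changed genes among 14902 tested were found again, and 0.524% of calls fell on genes left as they were. The simulated replicates had the same spread for every gene and were equally far apart, unlike these libraries. These rates thus do not describe calls near the fold threshold. Same-numbered libraries did not deviate together (correlations 0.108, -0.164 and -0.179), so the numbers were not taken as pairs. Across genotypes the highest correlation, 0.214, was between Pa1F/F replicate 2 and Amh-pa1-/- replicate 3, which each stood apart from their group. Pa1F/F replicates 1 and 3 correlated with Amh-pa1-/- replicates 1 and 2 at 0.108 to 0.150, and the remaining pairs at -0.179 to -0.141. The source of this pattern was not tested.

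The members and lists were chosen with earlier results of these data known. By rule the text names all 10 members, every called gene of the 5 pathway lists averaging 10 or more normalized counts (at most 8 per list, and without any gene that is not reported here), the paralogs and partners *Hsd3b6*, *Hsd17b3*, *Fdxr*, *Por*, *Cyb5a*, *Nr5a2*, *Insl3* and *Lhcgr*, and the 3 nearest genes of each tested member averaging 50 or more. Alternatives were other scalings (DESeq2 size factors, library size), other tests (DESeq2 1.42.0, limma-voom with limma 3.58.1, a test against the fold threshold), other filters, a replicate block, close pairs summed and each library left out.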

Additional observations from a re-analysis of the deposited data

How the results depend on the processing

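The 6 calls among the steroidogenic genes were 6 in number with DESeq2 size factors, DESeq2's Wald test, limma-voom and no filter, 5 with library size only and 5 with at least 10 counts in every library, where *Nr0b1* was not tested, and 4 to 6 with each library left out. They were 2 when tested against the fold threshold itself (log2 fold change of 1) and 2 with the close pairs summed. The 7 past the adjusted p alone became 2 with the close pairs summed and 6 to 8 with a library left out. Of the 19 calls in the pathway lists, 5 were left in the test against the fold threshold and 6 with the close pairs summed, with 17 to 24 when a library was left out. The log2 ratio of the summed Leydig cell markers ranged from -0.81 to 0.11 with a library left out, the latter without Pa1F/F replicate 2. The cause of these differences was not tested. Summing the close pairs also left fewer libraries, and the part of that was not separated. With the replicate block, whose numbers do not pair the libraries, 5 members were called, 6 passed the adjusted p alone and 19 pathway genes were called, and *Nr0b2* was the member that lost its call (adjusted p = 0.0803). No gene named from the lists or members changed sign where it was called. Over 14 settings the adjusted p ranged from 1.37e-10 to 0.0635 for *Star*, 1.87e-07 to 0.0791 for *Hsd3b1*, 0.000131 to 0.0781 for *Fdx1*, 0.00289 to 0.213 for *Nr0b2*, 6.77e-05 to 0.0734 for *Nr5a1*, 0.00741 to 0.957 for *Hsd17b1* and 0.0139 to 0.974 for *Hsd17b3*. With 3 libraries per genotype, of which 1 in each stood apart, the precision of *Star*, *Hsd3b1*, *Hsd17b1*, *Fdx1*, *Nr0b1* and *Nr0b2* is limited. Genes under 3 counts cannot be compared at this depth.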
